A study of Mus musculus with 17 samples.

Results

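The transcripts described here are 37 genes of macrophages and other leukocytes, chosen by symbol and measured in ventricular cardiomyocytes isolated from adult mouse hearts. They are 37 of the 55487 genes counted, and each matched 1 gene identifier. They fall into 5 roles: 3 complement C1q chains, 9 surface and signalling receptors, 11 scavenging, secreted and lysosomal genes, 4 genes of MHC class II and 10 genes shared by leukocytes or myeloid cells. The mice were 60 days old and were labelled MBNL1 loss-of-function (KO) or control (WT). Ventricular myocytes of every group were freed by Langendorff perfusion with Liberase, sedimented, plated on laminin for 3 h and then given 2 µg/mL actinomycin D, which blocks transcription. RNA was taken at 0, 4 and 8 h to compare the stability of transcripts between genotypes. There were 17 libraries, 3 per genotype and time apart from 2 for WT at 4 h. The labels do not say how the MBNL1 allele was made or whether libraries came from separate animals, so p-values measure the spread between these libraries, which may be technical.

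The adult heart holds resident macrophages among its myocytes, which clear debris and dying cells, secrete complement C1q and take up glycoproteins and lipids. They depend on signalling through the receptor encoded by Csf1r, and part of them carry MHC class II molecules, which present peptides to T cells. In a myocyte preparation such transcripts are taken as RNA of immune cells that remained after sedimentation. The protein MBNL1, of the muscleblind family, binds RNA and affects its splicing and stability.

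The libraries held 17059736 to 17971617 counts over genes, and mitochondrially encoded genes held 35.1 to 43.3% of them. Values are given as CPM (a count relative to the library total, after TMM scaling), or as RPKM (CPM per kilobase of exon) where genes are compared with each other. They are relative to the scaled library total and are not absolute amounts. If the mix of cells stays the same, a transcript that keeps its level during the block has decayed no faster than the bulk of the RNA. Whether the mix stayed the same was not tested. Mbnl1 had 1627 to 1820 counts in the 9 KO libraries and 1465 to 1823 in the 8 WT libraries. After scaling it stood at 93.9 to 106 CPM in KO and 85.6 to 92.9 CPM in WT, with every KO library above every WT library. It was thus not lower in the libraries labelled KO, and since the part of the gene that was changed is not given, it does not check the labels. Esr1, the oestrogen receptor alpha gene, had 36443 to 46057 counts in the libraries labelled KO and 0 to 57 in those labelled WT, and its part in the results below was not tested. In bulk RNA, fewer macrophages and less RNA of a gene per macrophage cannot be told apart.

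Most of the 37 transcripts were scarce. Over all libraries the mean level per length was highest for Lgmn at 31.9 RPKM, followed by Apoe at 11.5, Lyz2 at 8.95 and Cd74 at 6.47 RPKM. C1qb and C1qa came next at 3.11 and 2.56 RPKM, and Trem2 and Ccr2 were last at 0.0151 and 0.0118 RPKM. The filter on low counts kept 33 members and removed Ccr2, Trem2, Cd52 and Aif1, whose highest counts in any library were 8, 5, 11 and 6. The 33 are not all members, and 5 of them (Cx3cr1, Ms4a7, Coro1a, Spi1 and Itgam) did not pass the filter once the WT libraries at 0 h were set aside.

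Before the block, most of the tested members were lower in KO than in WT. After 8 h of actinomycin D few were lower, and more were higher than lower. At 0 h, 26 of 33 members were called lower and 1 higher in KO at an adjusted p under 0.05. Of all 13230 genes tested, 17.9% were called lower and 18.8% higher. Cx3cr1 and Coro1a are among the 26 and passed the filter only through WT at 0 h. Among the 28 members that pass without those libraries, 24 were lower and 1 higher, with a median log2 fold change of -1.25. The median log2 fold change of the 33 members was -1.22, against -0.02 over all genes. At 4 h, 4 members were called lower and 3 higher (all genes: 17.4% and 14.6%), with a median of -0.11. At 8 h, 1 was called lower and 9 higher (all genes: 13.7% and 13.9%), with a median of 0.41, or 0.44 with genes at 0 placed at their bound. Of the 9 called higher at 8 h, 6 had been called lower at 0 h (C1qb, Fcer1g, Lyz2, Mrc1, Cd163 and F13a1). The other 3, Cd14, Apoe and Cybb, had not been called at 0 h. Without KO replicate 1 at 8 h, 5 members in place of 9 were called higher at that time.

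During the block the members fell further in WT than in KO. From 0 to 4 h in WT, 25 of 33 members fell and 1 rose, where 12.6% of all genes fell and 15.9% rose, and the members' median was -1.21. From 0 to 8 h in WT, 32 fell and 1 rose (all genes: 26.8% and 25%), with a median of -2.24. In KO over the first 4 h, 4 members were called lower and 1 higher (all genes: 13.5% and 11.4%), with a median of -0.26. Over 8 h in KO, 17 fell and 1 was called higher (all genes: 23.2% and 21.4%), with a median of -0.72. The members that passed the filter only through WT at 0 h were selected for a high start in WT. Among the 28 that pass without those libraries, 23 fell in WT over 4 h and 27 over 8 h (median -2.08). In KO, 4 of the 28 fell over 4 h and 14 over 8 h (median -0.61). In each case 1 was called higher. Scaling by ribosomal protein counts raised the number of members called lower in KO to 11 at 4 h and 27 at 8 h. It left none called higher in either genotype. That scaling also moved the median of all genes in KO, to -0.22 over 4 h and -0.41 over 8 h. The members' medians were then -0.47 and -1.10. The share of all genes called was not counted under that scaling. The changes at 4 and 8 h share the libraries of 0 h within a genotype, and they share those also with the baseline difference between genotypes.

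The difference between genotypes in the change over time was tested directly, as an interaction. At 4 h, 10 of 33 members had a higher interaction, meaning a smaller loss in KO than in WT or no loss in KO, and 0 had a lower one. Over all genes, 0.242% had a higher interaction and 0.106% a lower one, so the members were 10 of 32 genes called higher. At an unadjusted p under 0.05, edgeR gave 20 members a higher and 1 a lower interaction at 4 h, and DESeq2 with adjustment gave 6 and 0. At 8 h, 18 of 33 members had a higher interaction and 0 a lower one, against 1.87% and 3.33% of all genes. At an unadjusted p under 0.05 the edgeR counts were 24 and 1. DESeq2 called 14 higher and 0 lower and gave 17 of the 33 no adjusted p. The shares of all genes at an unadjusted p and by DESeq2 were not counted at either time. The members' median interaction was 0.93 at 4 h and 1.35 at 8 h, with all-gene medians of -0.03 and -0.02. Among the 28 members that pass the filter without the WT libraries of 0 h, the counts were the same, 10 at 4 h and 18 at 8 h. Both interactions contain the baseline difference, so a transcript that starts low in KO and ends level gives a positive value.

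**Figure D1:**
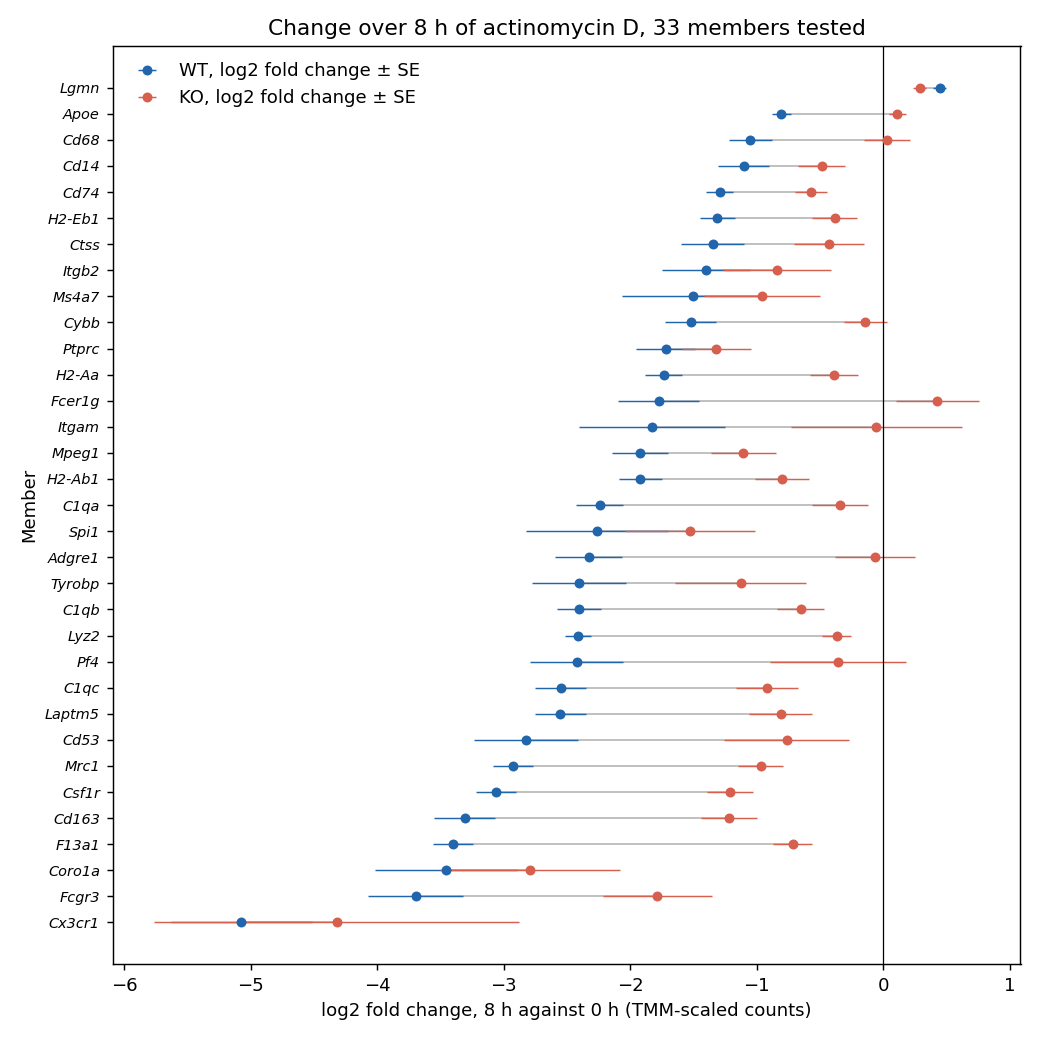
Change over 8 h of actinomycin D for the 33 members tested. The x axis is the log2 fold change from 0 to 8 h on TMM-scaled counts, each row is a gene, points are WT (blue) and KO (red) and bars are standard errors. The WT point lies to the left of the KO point for every member but Lgmn.

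C1q is the recognition molecule of the classical complement pathway and is built from A, B and C chains, whose genes lie side by side on chromosome 4 (GRCm38, C1qb from 136880129, C1qc from 136889804 and C1qa from 136895917 to 136898803, all on the reverse strand). All 3 were lower in KO at 0 h, and all 3 had a positive interaction at 8 h. C1qa stood at 5.8, 5.98 and 6.49 CPM in the WT libraries at 0 h, at 2.34 and 2.93 at 4 h and at 1.09, 1.17 and 1.6 at 8 h. The KO levels were 1.98, 2.14 and 2.37 CPM at 0 h, 1.49, 2.28 and 2.5 at 4 h and 1.18, 1.87 and 2.04 at 8 h. The genotypes were fully apart at 0 h, with WT the higher, and overlapped at 8 h. The KO level at 0 h was 35.6% of WT (log2 fold change -1.49 ± 0.17, SE; adjusted p = 3.1e-11). By 8 h the WT level had fallen to 21.1% of its baseline, while KO, at 78.8%, was not called (adjusted p = 0.209). The interaction at 8 h was 1.90 ± 0.30 (SE, adjusted p = 1.6e-05).

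C1qb went from 6.61, 7.09 and 8.92 CPM in WT at 0 h to 2.76 and 3.32 at 4 h and 1.2, 1.41 and 1.66 at 8 h. In KO it went from 3.1, 3.66 and 3.69 CPM to 2.4, 2.5 and 2.67 and then 1.56, 2.49 and 2.6. Here 2 of the 3 KO libraries lay above all WT libraries at 8 h, and the third lay among them. The 8 h difference of 0.64 ± 0.23 (SE, adjusted p = 0.028) was lost without KO replicate 1 (adjusted p = 0.155), without KO replicate 2 (0.117), without WT replicate 2 (0.124) or WT replicate 3 (0.0653), and with library size alone (0.0648) or ribosomal protein scaling (0.0552). C1qc stood at 6.77, 6.89 and 9.31 CPM in WT at 0 h, 1.84 and 2.34 at 4 h and 1.14, 1.17 and 1.6 at 8 h. Its KO levels were 2.14, 2.82 and 3 CPM, then 1.65, 2.02 and 2.69, then 0.902, 1.12 and 2.18. At 4 and 8 h the genotypes overlapped in C1qc. Its interaction was 1.55 ± 0.31 at 4 h (SE, adjusted p = 0.00598) and 1.64 ± 0.34 at 8 h (SE, adjusted p = 0.00148), and without KO replicate 1 at 8 h the latter was 1.17 (adjusted p = 0.0664). The 4 h interaction was not called without KO replicate 2 (adjusted p = 0.0918) or WT replicate 1 (0.0929) of 4 h.

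**Figure D2:**
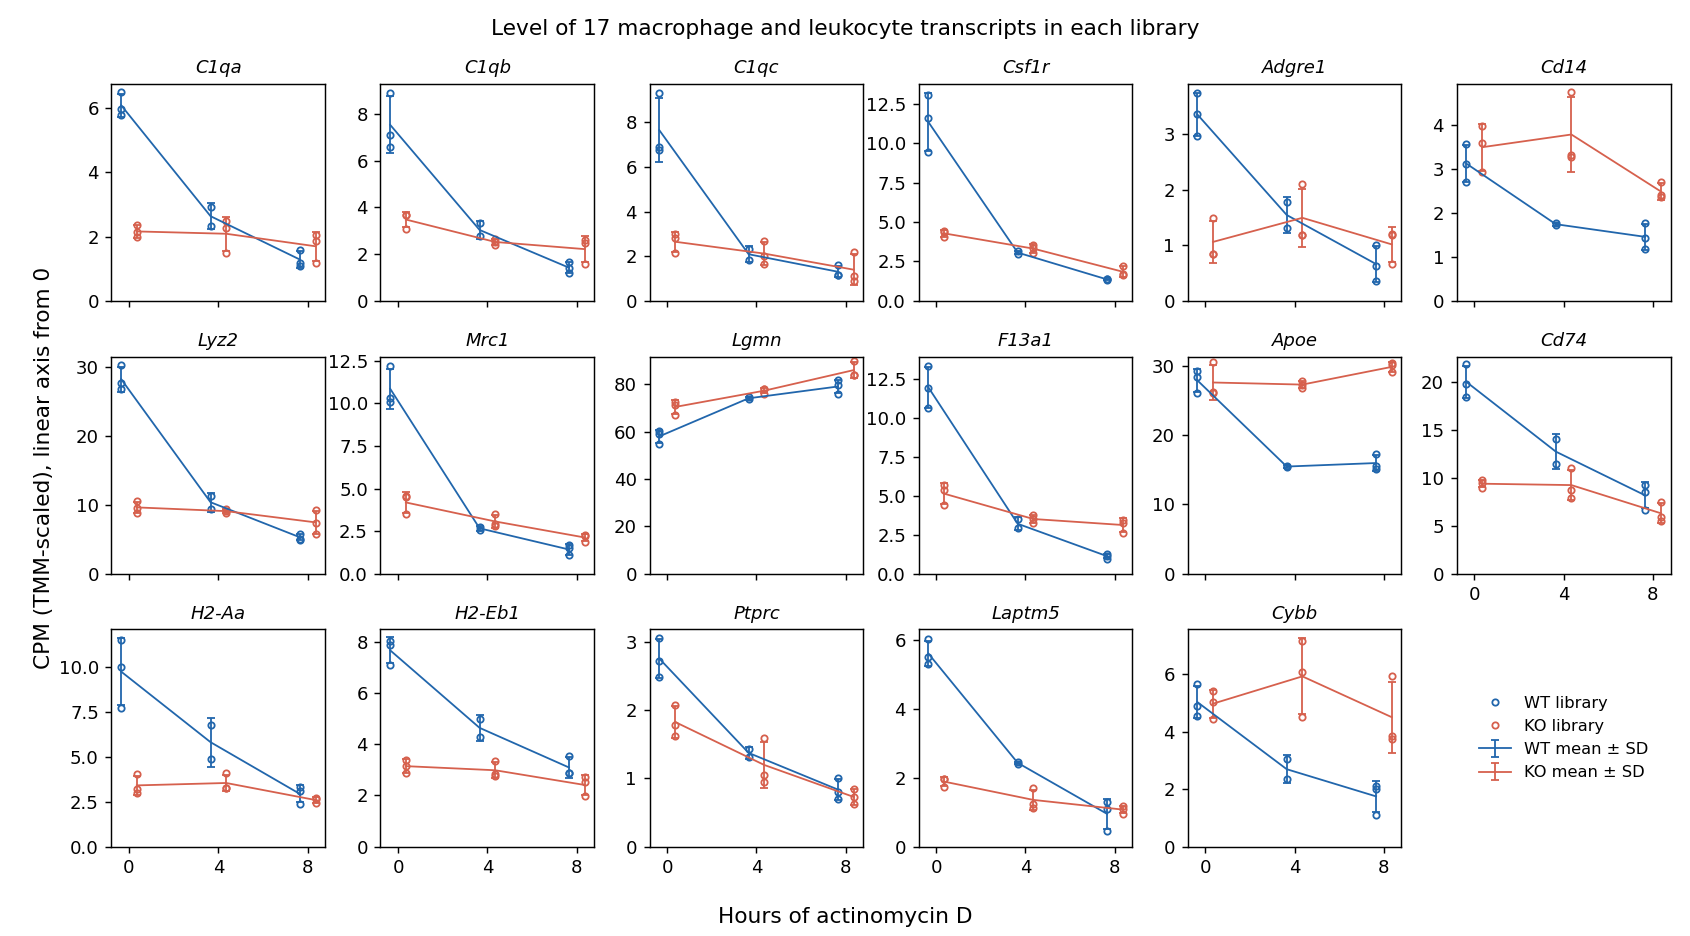
Level of 17 transcripts in each library, in TMM-scaled CPM on a linear axis from 0, against hours of actinomycin D (0, 4 and 8 h). Circles are single libraries, lines join group means and bars are SD over 3 libraries, or 2 for WT at 4 h. In most panels the WT line starts above the KO line and meets or crosses it by 8 h, while the genotypes overlap at 0 h and are apart later for Apoe, Cd14 and Cybb.

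Among the receptors, 6 of the 7 tested were lower in KO at 0 h, with Cd14 the exception. The 6 include Cx3cr1, which passed the filter only through WT at 0 h. A positive interaction at 8 h was called for 3 receptors (Csf1r, Adgre1 and Fcer1g). Csf1r, the receptor for the macrophage growth factors CSF1 and IL-34, stood at 9.42, 11.6 and 13.1 CPM in WT at 0 h. It fell to 2.99 and 3.14 CPM at 4 h and 1.32, 1.36 and 1.41 at 8 h, 12% of its baseline. The KO libraries held 4.04, 4.38 and 4.45 CPM, then 3.04, 3.35 and 3.57, then 1.63, 1.68 and 2.24. The genotypes were apart at 0 h, with WT the higher, and apart again at 8 h by a small margin, with KO the higher. The KO to WT difference was -1.41 ± 0.12 at 0 h (SE, adjusted p = 6.6e-15), and 0.44 at 8 h did not pass the test (adjusted p = 0.153). Csf1r had the interaction 1.52 ± 0.22 at 4 h (SE, adjusted p = 1.2e-05) and 1.85 ± 0.26 at 8 h (SE, adjusted p = 1.7e-06). Its exons overlap those of Hmgxb3 on the other strand, and whether the counting used strand is not given in the sources used here.

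Adgre1 encodes F4/80, a surface protein used to identify mouse macrophages. It stood at 2.97, 3.37 and 3.74 CPM in WT at 0 h, 1.32 and 1.77 at 4 h and 0.351, 0.629 and 1.01 at 8 h. Levels in KO were 0.84, 0.845 and 1.5 CPM, then 1.19, 1.19 and 2.1, then 0.661, 1.18 and 1.21. Adgre1 was clearly apart at 0 h only, and its KO libraries overlapped one another across all times. The log2 fold change over 8 h was -2.33 ± 0.27 in WT (SE) and -0.07 in KO, and the interaction was 2.26 ± 0.43 (SE, adjusted p = 4.1e-04).

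Cd14, a co-receptor for bacterial lipopolysaccharide, followed another course. It stood at 2.71, 3.11 and 3.57 CPM in WT and 2.93, 3.6 and 3.98 CPM in KO at 0 h, which overlap. At 4 h it was 1.72 and 1.77 CPM in WT and 3.27, 3.33 and 4.77 in KO, and at 8 h 1.17, 1.43 and 1.78 in WT and 2.36, 2.42 and 2.71 in KO. Every KO library was above every WT library at both later times. The difference was 0.16 at 0 h (adjusted p = 0.505), 1.12 ± 0.22 at 4 h (SE, adjusted p = 3.4e-05) and 0.77 ± 0.22 at 8 h (SE, adjusted p = 0.00529). Its interaction did not pass the test at 4 h (0.96, adjusted p = 0.149) or at 8 h (0.62, adjusted p = 0.207), though it passed at 4 h with library size alone (1.12, adjusted p = 0.0313) and at 8 h with ribosomal protein scaling (0.89, adjusted p = 0.0167).

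The chemokine receptors were scarce. Cx3cr1, the fractalkine receptor of resident macrophages and some monocytes, had 29, 31 and 32 counts in the WT libraries at 0 h and 2, 2 and 3 in KO. It then had 3 and 3 counts in WT at 4 h and 0, 1 and 1 at 8 h, and in KO 0, 0 and 1 at 4 h and 0 in all 3 libraries at 8 h. Only the WT baseline stood clear of counts that a handful of reads can give. Cx3cr1 passed the filter only through those libraries, so its call at 0 h is not independent of the filter. It is counted among the 26 members and 6 receptors lower in KO at 0 h. The counts over 28 members leave it out. Ccr2, the receptor that marks monocyte-derived cells, had 4, 7 and 8 counts in WT and 1, 1 and 2 in KO at 0 h and at most 2 in any library later, so it was not tested. Trem2, a lipid-sensing receptor, had 0 to 5 counts in every library.

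The remaining receptors were the Fc receptor genes Fcgr3 and Fcer1g and Tyrobp, an adaptor that signals for several myeloid receptors. Fcgr3 was 2.11 to 2.68 CPM in WT and 0.789 to 1.02 CPM in KO at 0 h, and Tyrobp 1.46 to 2.01 and 0.24 to 0.75 CPM. Fcer1g had 27, 28 and 33 counts in WT at 0 h, 11 and 19 at 4 h and 6, 6 and 10 at 8 h. In KO it had 10, 12 and 13 counts, then 13, 14 and 14, then 12, 15 and 18. Fcer1g counts in KO thus stayed within a narrow span while those in WT dropped below them. Its difference was -1.12 ± 0.29 at 0 h (SE, adjusted p = 0.00136) and 1.08 ± 0.37 at 8 h (SE, adjusted p = 0.0205), and the interaction at 8 h was 2.20 ± 0.47 (SE, adjusted p = 0.00147). The 8 h difference was lost with DESeq2 (adjusted p = 0.0523) and without KO replicate 1 (0.0965), WT replicate 1 (0.0744) or WT replicate 3 (0.0783) of 8 h. Fcgr3 resembles its neighbours of the Fc gamma receptor family, and how reads shared between such copies were counted is not given in the sources used here.

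In the scavenging, secreted and lysosomal group, 8 of 11 members were lower in KO at 0 h and 1 was higher, and 6 had a positive interaction at 8 h. Lyz2, the lysozyme gene of macrophages and neutrophils, had the smallest interaction p of all members. It stood at 26.8, 27.8 and 30.3 CPM in WT at 0 h, 9.43 and 11.4 at 4 h and 4.98, 5.09 and 5.84 at 8 h. The KO libraries had 8.88, 9.52 and 10.6 CPM at 0 h, 8.81, 9.11 and 9.41 at 4 h and 5.84, 7.33 and 9.24 at 8 h. Lyz2 in KO at 0 h was already where WT arrived after 4 h, and at 8 h the lowest KO library was level with the highest WT library. The difference was -1.55 ± 0.09 at 0 h (SE, adjusted p = 6.5e-22) and 0.50 ± 0.13 at 8 h (SE, adjusted p = 0.00205), the latter lost without KO replicate 1 at 8 h (0.31, adjusted p = 0.0926). The WT level fell to 36.8% of baseline by 4 h and 18.8% by 8 h, and the KO level was 94.3% and 77.5% of its own. The interaction was 1.36 ± 0.15 at 4 h (SE, adjusted p = 8.2e-09) and 2.05 ± 0.16 at 8 h (SE, adjusted p = 8.3e-15). Lyz2 has a close copy, Lyz1, with which it may share reads.

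F13a1, the A chain of coagulation factor XIII, which resident macrophages express, showed the largest interaction of the members called at 8 h. It stood at 10.7, 11.9 and 13.3 CPM in WT at 0 h, 2.92 and 3.5 at 4 h and 0.973, 1.17 and 1.24 at 8 h. F13a1 in KO was at 4.38, 5.35 and 5.7 CPM, then 3.27, 3.52 and 3.75, then 2.64, 3.26 and 3.48. The lowest KO library at 8 h lay well above the highest WT library. The difference turned from -1.22 ± 0.12 at 0 h (SE, adjusted p = 1.6e-13) to 1.47 ± 0.21 at 8 h (SE, adjusted p = 8.0e-08). WT kept 9.46% of its baseline level at 8 h and KO 60.9%, giving an interaction of 2.69 ± 0.24 (SE, adjusted p = 1.1e-12). The exons of F13a1 overlap those of Gm30489 on the other strand.

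Mrc1 and Cd163 encode the mannose receptor CD206 and the haemoglobin scavenger receptor, markers of resident tissue macrophages. Mrc1 went from 10.1, 10.3 and 12.2 CPM in WT at 0 h to 2.57 and 2.76 at 4 h and 1.09, 1.52 and 1.66 at 8 h. Its KO levels were 3.49, 4.5 and 4.56 CPM, then 2.8, 2.9 and 3.51, then 1.87, 2.22 and 2.3. Mrc1 was apart between genotypes at every time, with WT above at 0 h and KO above at 4 and 8 h by a small margin. The 0 h difference was -1.38 ± 0.13 (SE). The 8 h difference of 0.58 ± 0.22 (SE, adjusted p = 0.0406) was lost under several alternatives, among them DESeq2 (adjusted p = 0.0644) and leaving out WT replicate 2 at 8 h (0.42, adjusted p = 0.215). The interaction of 1.96 ± 0.26 at 8 h (SE, adjusted p = 1.3e-07) kept its call under every alternative tried.

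Cd163 had 103, 106 and 127 counts in WT at 0 h, 20 and 33 at 4 h and 7, 11 and 11 at 8 h. In KO it had 50, 55 and 74 counts, then 28, 40 and 52, then 20, 25 and 28. Both genotypes lost Cd163, and at 8 h every KO library held more counts than every WT library. The 8 h difference was 1.38 ± 0.33 (SE, adjusted p = 7.8e-04) and the interaction 2.09 ± 0.37 (SE, adjusted p = 1.3e-04).

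Apoe, the lipid transport protein apolipoprotein E, and Lgmn, the lysosomal protease legumain, are made by other cell types as well as macrophages, and both departed from the other members. Apoe stood at 26, 28.4 and 29.3 CPM in WT and 26, 26.3 and 30.5 CPM in KO at 0 h. It then fell in WT to 15.3 and 15.6 CPM at 4 h and 15.1, 15.6 and 17.3 at 8 h. In KO it was 26.8, 27.3 and 27.8 CPM at 4 h and 29.1, 30.1 and 30.4 at 8 h. Apoe thus overlapped between genotypes before the block and was fully apart after it, and its WT levels at 4 and 8 h overlapped. The difference was -0.02 at 0 h (adjusted p = 0.888), although Apoe was called lower in KO at 0 h with library size alone (-0.22, adjusted p = 0.0101) and with ribosomal protein scaling (-0.35, adjusted p = 2.2e-04). It was 0.82 ± 0.08 at 4 h (SE, adjusted p = 2.7e-12) and 0.90 ± 0.07 at 8 h (SE, adjusted p = 4.1e-16). The interaction was 0.83 ± 0.11 at 4 h (SE, adjusted p = 5.0e-07) and 0.92 ± 0.10 at 8 h (SE, adjusted p = 9.9e-10).

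Lgmn stood at 54.8, 59 and 60.2 CPM in WT at 0 h, 73.7 and 74.5 at 4 h and 76, 79.6 and 81.7 at 8 h. Lgmn in KO was at 67.2, 71.4 and 72.6 CPM, then 76.1, 77.9 and 77.9, then 83.9, 84.1 and 90. Lgmn was the 1 member called higher in KO at 0 h (0.28 ± 0.05, SE; adjusted p = 1.2e-05) and the 1 member that rose in WT over 8 h (0.45 ± 0.05, SE), although both directions turned with ribosomal protein scaling, to -0.050 and -0.22, and the first was not called with library size alone (0.071). Its interaction at 8 h was -0.16 (adjusted p = 0.219). With Lgmn and Apoe set aside, the summed level of the other 35 members was 168 to 195 CPM in WT and 75.4 to 82.1 CPM in KO at 0 h. It was 72.7 to 81.3 and 65.1 to 74.8 CPM at 4 h, and 36.6 to 47.5 and 50.1 to 56.5 CPM at 8 h. The groups did not overlap at 0 or 8 h in this sum, and overlapped at 4 h.

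Of the other members with these roles, Cd68, a lysosomal membrane protein, was 3.62 to 4.6 CPM in WT and 2.54 to 2.82 in KO at 0 h, and 1.77 to 2.28 and 2.42 to 2.98 CPM at 8 h. Its interaction at 8 h was 1.08 ± 0.25 (SE, adjusted p = 0.00372). Pf4, the chemokine platelet factor 4, had 34, 39 and 53 counts in WT and 1, 8 and 14 in KO at 0 h, a difference of -2.23 ± 0.36 (SE, adjusted p = 1.1e-06). Its 8 h interaction of 2.07 did not pass the test (adjusted p = 0.0728). Ctss, the lysosomal protease cathepsin S, and Mpeg1, the pore-forming perforin-2, were lower in KO at 0 h by 0.69 and 0.81 on the log2 scale, and their interactions at 8 h were not called. The Ctss call was lost with DESeq2 (adjusted p = 0.0689) and without KO replicate 3 (0.0924) or WT replicate 2 (0.189) of 0 h. Ms4a7, a membrane protein of macrophages, had 1 to 18 counts per library and no genotype difference was called at any time.

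MHC class II molecules are pairs of an alpha and a beta chain, here encoded by H2-Aa with H2-Ab1 and by H2-Eb1, and Cd74 encodes the invariant chain that guides their assembly. Promoters of class II genes are known for an element called the Y box. The 250 bases before the start of H2-Aa and H2-Eb1 are shown as the members' windows that hold its letters, 5′ to 3′ on the strand of the gene, with the Y box letters CTGATTGG in capitals (RefSeq, GRCm38.p6; H2-Aa at chr17:34287824-34288073, reverse strand; H2-Eb1 at chr17:34305617-34305866, forward strand).
H2-Aa: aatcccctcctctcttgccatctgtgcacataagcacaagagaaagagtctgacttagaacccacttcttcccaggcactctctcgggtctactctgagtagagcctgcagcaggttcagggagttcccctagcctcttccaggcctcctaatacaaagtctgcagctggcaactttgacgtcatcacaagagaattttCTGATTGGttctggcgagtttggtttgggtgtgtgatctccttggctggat
H2-Eb1: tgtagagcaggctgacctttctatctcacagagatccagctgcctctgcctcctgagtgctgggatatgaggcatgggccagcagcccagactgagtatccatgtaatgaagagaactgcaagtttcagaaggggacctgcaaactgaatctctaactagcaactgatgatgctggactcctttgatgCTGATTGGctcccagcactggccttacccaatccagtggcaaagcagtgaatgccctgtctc
The match began 51 bases before the start of H2-Aa and 62 before that of H2-Eb1. Searched on both strands, CTGATTGG was found in 3.83% of 32851 promoter windows of that length and in windows of 2 of the 27 members with an entry. The PU.1 letters GAGGAAGT were found in 2.44% of windows and in those of 2 members, C1qc and Pf4. H2-Ab1 and Cd74 had no entry. A match is a description of these letters only, and its part in the levels was not tested.

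All 4 class II genes were lower in KO at 0 h, with a median of -1.34, and 3 of them (Cd74, H2-Aa and H2-Eb1) were called lower at 4 h. All 3 of the 4 h calls were lost without WT replicate 1 at 4 h, with values of -0.28, -0.42 and -0.49 (adjusted p = 0.218, 0.17 and 0.0996). Cd74 stood at 18.4, 19.7 and 21.8 CPM in WT at 0 h, 11.4 and 14 at 4 h and 6.68, 8.52 and 9.3 at 8 h. Cd74 in KO was at 8.96, 9.46 and 9.72 CPM, then 7.92, 8.77 and 11, then 5.53, 5.86 and 7.51. WT stayed above KO at 0 and 4 h and the genotypes overlapped at 8 h. The difference narrowed from -1.09 ± 0.10 at 0 h (SE, adjusted p = 6.0e-12) to -0.46 ± 0.13 at 4 h (SE, adjusted p = 0.00369) and -0.37 ± 0.13 at 8 h (SE, adjusted p = 0.0322). Apart from the loss of the 4 h call given above, the 8 h difference was not called by DESeq2 (adjusted p = 0.0752) or without KO replicate 1 (0.128), KO replicate 2 (0.162), WT replicate 1 (0.185) or WT replicate 2 (0.112) of 8 h. Cd74 also holds the microRNA Mir5107 on its own strand.

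H2-Aa went from 7.74, 10 and 11.5 CPM in WT at 0 h to 4.86 and 6.78 at 4 h and 2.4, 3.09 and 3.32 at 8 h. In KO it was 2.99, 3.23 and 4.02 CPM, then 3.27, 3.27 and 4.09, then 2.42, 2.66 and 2.71. H2-Eb1 went from 7.1, 7.88 and 8.04 CPM in WT to 4.29 and 5 and then 2.86, 2.87 and 3.55. Its KO levels were 2.88, 3.16 and 3.4 CPM, then 2.75, 2.86 and 3.35, then 1.99, 2.52 and 2.72. For both genes the KO libraries of 0 and 4 h overlapped, while those of WT fell between these times. H2-Aa differed by -1.52 ± 0.14 at 0 h (SE, adjusted p = 1.8e-13) and -0.71 ± 0.17 at 4 h (SE, adjusted p = 9.8e-04), and its -0.18 at 8 h was not called. The 4 h value is the one that moved to -0.42 when 1 of the 2 WT libraries was left out. H2-Ab1 was 6.34 to 7.43 CPM in WT and 2.14 to 3.66 CPM in KO at 0 h, and 1.52 to 2.37 and 1.45 to 1.62 CPM at 8 h. The interaction at 8 h passed for all 4 genes, from 0.72 ± 0.17 for Cd74 (SE, adjusted p = 0.00658) to 1.35 ± 0.25 for H2-Aa (SE, adjusted p = 2.6e-04). At 4 h edgeR and DESeq2 called 0 of the 4, although all 4 had an unadjusted edgeR p under 0.05, and Cd74 and H2-Aa passed under some alternatives.

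**Figure D3:**
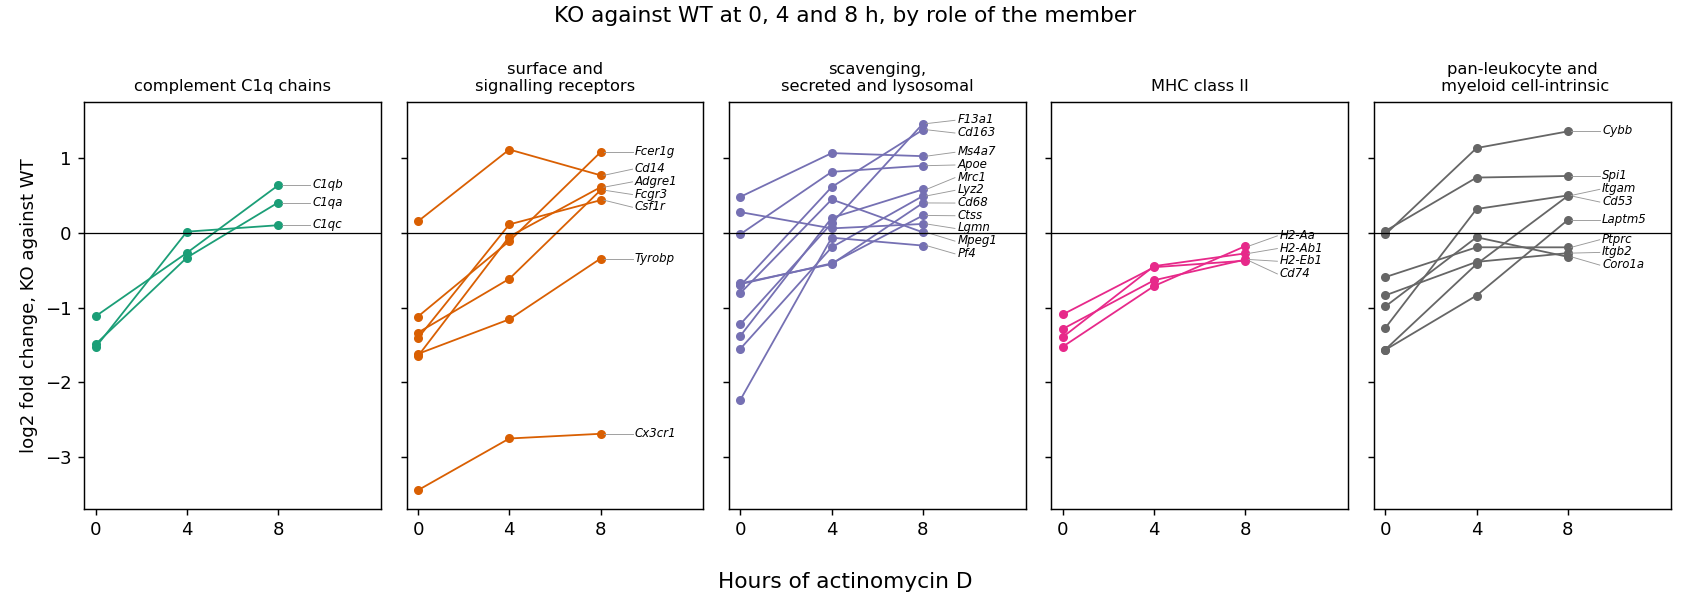
Difference between KO and WT at 0, 4 and 8 h for the 33 members tested, in panels by role. The x axis is hours of actinomycin D, the y axis the log2 fold change of KO against WT on TMM-scaled counts, and each line is a gene. The class II genes move from between -1.52 and -1.09 to between -0.37 and -0.18, staying under 0, while F13a1, Cd163, Fcer1g, Apoe and Cybb end near or above 1.

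Of the genes shared by leukocytes or myeloid cells, 5 of the 8 tested were lower in KO at 0 h. The 5 include Coro1a, which passed the filter only through WT at 0 h. Of the 8, 2 had a positive interaction at 8 h, Laptm5 and Cybb. Ptprc encodes CD45, the surface phosphatase of all leukocytes. It stood at 2.49, 2.72 and 3.06 CPM in WT at 0 h, 1.32 and 1.44 at 4 h and 0.703, 0.801 and 1.01 at 8 h. Ptprc in KO was at 1.62, 1.79 and 2.08 CPM, then 0.952, 1.05 and 1.59, then 0.622, 0.721 and 0.846. Ptprc was apart at 0 h only, and it fell in both genotypes. The 0 h difference was -0.59 ± 0.20 (SE, adjusted p = 0.014), and it was lost with DESeq2 (adjusted p = 0.0892), without KO replicate 2 (0.0674) and without WT replicate 3 (0.0901) of 0 h. The changes over 8 h were -1.72 ± 0.23 in WT and -1.32 ± 0.27 in KO (SE), and the interaction of 0.40 was not called (adjusted p = 0.638).

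Laptm5, a lysosomal membrane protein of blood cells, stood at 5.31, 5.5 and 6.03 CPM in WT at 0 h, 2.41 and 2.46 at 4 h and 0.469, 1.09 and 1.3 at 8 h. In KO it was 1.74, 1.96 and 1.97 CPM, then 1.13, 1.25 and 1.7, then 0.962, 1.09 and 1.18. WT was above KO at 0 and 4 h, and at 8 h the KO libraries lay inside the WT range. The differences were -1.57 ± 0.17 at 0 h (SE) and -0.84 ± 0.25 at 4 h (SE, adjusted p = 0.00556; 0.0502 without WT replicate 2 at 4 h), and the interaction at 8 h was 1.74 ± 0.34 (SE, adjusted p = 6.8e-04).

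Cybb, the catalytic subunit of the phagocyte NADPH oxidase, also overlapped between genotypes at 0 h, as did Apoe and Cd14. It stood at 4.55, 4.88 and 5.65 CPM in WT and 4.45, 5.04 and 5.42 CPM in KO at 0 h. At 4 h it was 2.36 and 3.03 CPM in WT and 4.52, 6.08 and 7.16 in KO, and at 8 h 1.11, 2.01 and 2.12 in WT and 3.73, 3.86 and 5.92 in KO. After 0 h no WT library reached the lowest KO library. The difference was -0.02 at 0 h (adjusted p = 0.941), 1.14 ± 0.21 at 4 h (SE, adjusted p = 2.4e-05) and 1.36 ± 0.21 at 8 h (SE, adjusted p = 2.0e-06). The interaction was 1.16 ± 0.27 at 4 h (SE, adjusted p = 0.0313), lost with DESeq2 (adjusted p = 0.0722) and when any of several libraries was left out, and 1.38 ± 0.27 at 8 h (SE, adjusted p = 1.0e-03).

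The other members of this role were scarce. Cd53, a leukocyte tetraspanin, had 16, 30 and 47 counts in WT and 8, 9 and 10 in KO at 0 h. Coro1a, an actin regulator of leukocytes whose exons overlap Bola2 on the other strand, had 13, 18 and 24 counts in WT and 5, 7 and 12 in KO. Itgb2, the beta chain of the leukocyte integrins, was also lower in KO (-0.84, adjusted p = 0.032). The 0 h calls of Coro1a and Itgb2 were both lost with DESeq2 (adjusted p = 0.152 and 0.12) and when single libraries were left out. Itgam, the alpha chain CD11b, had 1 to 14 counts per library, and its 0 h difference of -1.27 did not pass the test (adjusted p = 0.0511). Spi1 encodes the myeloid transcription factor PU.1 and had 10, 10 and 15 counts in WT and 7, 7 and 17 in KO at 0 h, with no genotype difference called. Cd52, a lymphocyte and monocyte surface peptide, and Aif1, the macrophage protein IBA1, had at most 11 and 6 counts.

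Markers of other leukocytes were measured beside the members. Of 10 neutrophil and 8 NK cell genes, 0 passed the filter on low counts, and each of these lists summed to at most 0.396 CPM in any library. Of 10 T cell genes 1 passed, Cd28, which stood at a mean of 3.09 CPM and was lower in KO at 0 h (-0.62 ± 0.17, SE; adjusted p = 0.00344) and at 8 h (-0.48 ± 0.18, SE; adjusted p = 0.0387). Over 8 h Cd28 was not called in WT (-0.07) or KO (0.07), and the other 9 T cell genes had under 10 counts in every library. Of 8 B cell genes 2 passed, and the list summed to 3.37 to 4.71 CPM in WT and 0.563 to 1.85 CPM in KO at 0 h. The immunoglobulin heavy chain gene Ighm was lower in KO at 0 h (-2.92 ± 0.38, SE; adjusted p = 1.5e-08), 4 h (-2.16) and 8 h (-2.48). Of 8 dendritic cell genes 3 passed, and the list summed to 5.2 to 7.09 CPM in WT and 5.08 to 6.31 CPM in KO at 0 h, which overlap. A further list of 74 macrophage genes had 57 tested. Of the 57, 34 were lower and 5 higher in KO at 0 h (all genes: 17.9% and 18.8%), with a median of -0.58. Lpl and Ctsd, at means of 5399 and 901 CPM, are among the 34 and stood far above every member. The list thus does not stand for macrophages alone. At 8 h, 8 of the 57 had a higher and 1 a lower interaction (all genes: 1.87% and 3.33%). The 8 include Stab1, a scavenger receptor gene, at 1.92 ± 0.23 (SE), and Ctsd at 0.26 ± 0.06 (SE). Of 3 tested genes of macrophage growth factors and ligands, Cx3cl1, the fractalkine that binds the Cx3cr1 receptor, was lower in KO at 0, 4 and 8 h (-1.17, -1.18 and -1.04). Csf1, the ligand of the Csf1r receptor, was not called at 0 h (-0.16, adjusted p = 0.0558) and was lower in KO at 4 and 8 h, at -0.68 both times. Its interactions of -0.53 and -0.52 were called lower, the opposite direction to those of the members.

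Markers of endothelial cells, another population that can remain in myocyte preparations, fell strongly in both genotypes. Over 8 h 17 of 18 fell in WT, with a list median of -2.25, and 17 of 18 fell in KO, with a median of -1.90. At 0 h 12 of the 18 were lower in KO with a median of -0.27, and 3 had a positive interaction at 8 h. The 33 macrophage members had nearly the same median in WT over 8 h, -2.24, but -0.72 in KO. Among the 28 that pass the filter without the WT libraries of 0 h, these medians were -2.08 and -0.61. Of 17 fibroblast markers tested, 13 were lower in KO at 0 h with a median of -0.87. For these markers edgeR called 0 interactions at 8 h, where their median was 0.05 and 1 had an unadjusted edgeR p under 0.05. DESeq2 also called 0, but it gave 12 of the 17 no adjusted p, so those could not be called. Of 18 cardiomyocyte genes, 13 were higher and 1 lower in KO at 0 h, with a median of 0.38, and of 75 genes of cytosolic ribosomal proteins 62 were higher and 2 lower, also with a median of 0.38. Of 8 tested pericyte and smooth muscle genes, 1 was lower and 0 higher in KO at 0 h, with a median of -0.03. Of all genes tested, 17.9% were lower and 18.8% higher at 0 h. Some lists of other cell types thus also moved with genotype at 0 h, and their part in the members' differences was not tested. Another list held 18 tested genes of inflammatory cytokines and chemokines, many of them short-lived messages that activated macrophages make. It also held genes that are neither, such as Nfkbia, Zfp36 and Ier3, the last 2 with its highest means, 21.6 and 19.8 CPM. At 0 h, 5 of the 18 were lower and 7 higher in KO, with a median of 0.17. Over 8 h, 14 fell in WT and 16 in KO, with medians of -1.95 and -1.71. Of all genes, 26.8% and 23.2% fell. The interactions called at 8 h were 1 higher, Zfp36 (0.84), and 1 lower, Nfkbia (-0.64), so no cytokine or chemokine was called. The differences between the lists themselves were not tested.

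**Figure D4:**
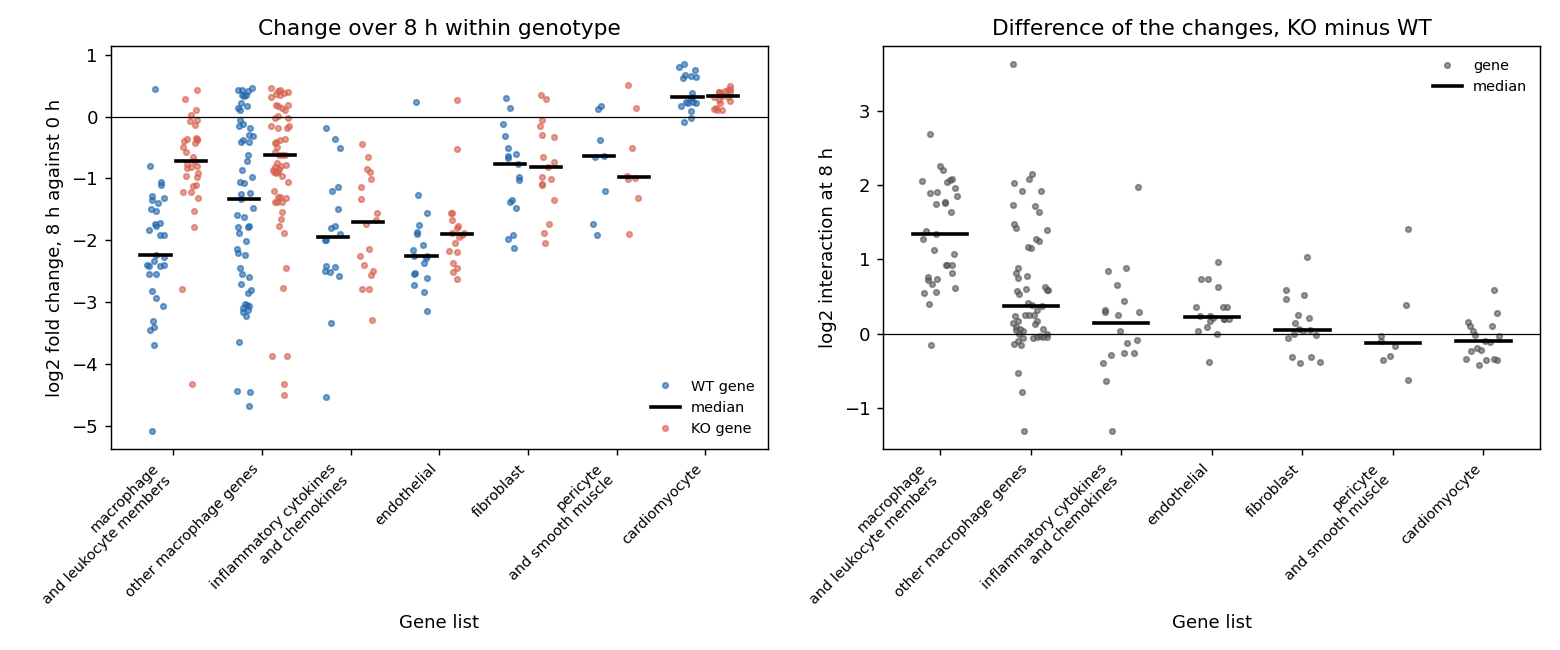
Change over 8 h within each genotype (left panel, log2 fold change of 8 h against 0 h, WT blue and KO red) and difference of the changes (right panel, log2 interaction at 8 h, KO minus WT) for 7 gene lists. Points are tested genes and bars are list medians. The macrophage and leukocyte members have medians of -2.24 in WT and -0.72 in KO and an interaction median of 1.35, while the endothelial list has -2.25, -1.90 and 0.22.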

How the data were processed

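RNA was measured in the 17 libraries described above, from total RNA extracted with TRIzol and RNeasy and sequenced on DNBseq, per the labels. The authors deposited raw counts of reads per Ensembl gene, and the tools listed in the submitters' processing notes are STAR, featureCounts, DESeq2 and limma, with the builds GRCm38 and mm10. The sources used here give no tool versions and do not say how strand or reads with several positions were treated. A deposited table of ratios was not used. The members and gene lists were chosen with earlier results of these data known.

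Symbols, positions and exon lengths came from GENCODE M21 (99.5% of identifiers matched). Tests used edgeR 4.0.16 (R 4.3.3). The filter filterByExpr kept 13230 genes, libraries were scaled by TMM, and a robust quasi-likelihood model of the 6 groups gave 9 comparisons. Benjamini-Hochberg adjustment ran over all tested genes of a comparison, with calls under 0.05. The standard error is the log2 fold change over the square root of F, and the interaction is the KO change minus the WT change. The script was tested on simulated data.

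Genes given in every library are the 3 with the highest mean CPM per role and, per comparison, the 2 called members with the largest change and a mean CPM of at least 3. Other members are given by ranges or counts, and those named beyond this rule were chosen after their values were seen. Exons also overlap for Cx3cr1 with Gm33858, Cd52 with Crybg2 and Itgam with Gm49368. The 16 pairs of libraries within groups differed by more than counting error (variance ratio 1.30 to 4.13), so none was counted as a copy. No pairing by equal replicate number was detected: over 40 pairs, deviations correlated at -0.0989 to 0.0995. With so few libraries per group, this cannot show whether libraries of equal number shared an animal or batch.

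Alternatives were RLE scaling, library size alone, nuclear-encoded totals, ribosomal protein scaling, no filter, DESeq2 1.42.0, a filter at a CPM of 1 in 3 libraries, a replicate block, the compared groups alone and leaving out each library. Promoter windows came from RefSeq (GRCm38.p6), which held 27 of the 37 members.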

Additional observations from a re-analysis of the deposited data

Results flagged for a closer look

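For the genes below the change during actinomycin D differed between the genotypes by the interaction test of edgeR, and each value is the log2 change in KO minus that in WT. All are positive, meaning a smaller loss in KO than in WT or no loss in KO. The tests at 4 and 8 h share the libraries of 0 h.

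At 4 h the difference was 1.16 for C1qa, 1.55 for C1qc, 1.52 for Csf1r and 1.60 for Adgre1. It was 1.36 for Lyz2, 1.58 for Mrc1, 1.32 for Cd163, 1.35 for F13a1, 0.83 for Apoe and 1.16 for Cybb. Of these, C1qa, Adgre1, Cybb and Cd163 had the highest adjusted p-values, 0.033, 0.0319, 0.0313 and 0.0313. Each lost its call with DESeq2 (adjusted p = 0.19, 0.18, 0.0722 and 0.158) and without any 1 of several single libraries. C1qc lost its call without KO replicate 2 (0.0918) or WT replicate 1 (0.0929) of 4 h.

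At 8 h the difference was 1.90 for C1qa, 1.75 for C1qb and 1.64 for C1qc. Among receptors it was 1.85 for Csf1r, 2.26 for Adgre1 and 2.20 for Fcer1g. Among scavenging and lysosomal genes it was 2.05 for Lyz2, 1.96 for Mrc1, 2.09 for Cd163, 1.08 for Cd68, 2.69 for F13a1 and 0.92 for Apoe. The class II genes had 0.72 (Cd74), 1.35 (H2-Aa), 1.12 (H2-Ab1) and 0.93 (H2-Eb1), and Laptm5 and Cybb had 1.74 and 1.38.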

How the results depend on the processing

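The 26 members lower in KO at 0 h include Cx3cr1 and Coro1a, which passed the filter only through WT at 0 h. With DESeq2 the 26 were 22. The 18 higher interactions at 8 h were 14 with DESeq2, where 17 members had no adjusted p. Smaller counts moved with several settings. With library size alone, 0 members were higher in KO at 0 h, 0 rose in WT at 4 h, 0 rose in KO at 4 h and 16 had a higher 4 h interaction (10 with TMM). Library size alone also moved the median of all genes, to 0.12 for the 4 h interaction, where the members' median was 1.08. For KO against WT at 0 h these medians were -0.22 and -1.43. The shares of all genes called were not counted under the alternatives. With ribosomal protein scaling, 0 were higher in KO at 0 h, 13 were lower in KO at 4 h, 0 rose in WT at 4 or 8 h, and in KO 11 fell and 0 rose at 4 h and 27 fell and 0 rose at 8 h. That scaling turned Lgmn to -0.050 (0 h) and -0.30 (4 h) for KO against WT, -0.22 over 8 h in WT and -0.087 and -0.10 over 4 and 8 h in KO, and Apoe to -0.27 over 8 h in KO. It moved the median of all genes by its own construction, to -0.35 for KO against WT at 0 h, where the members' median was -1.55. Over 8 h in WT and for the 8 h interaction it was -0.69 and 0.26, with members' medians of -2.91 and 1.62. For KO against WT at 4 h, where 13 members were called lower, the medians lay close together. They were -0.40 for all genes and -0.47 for the members. DESeq2 gave 0 lower in KO at 8 h, 1 fallen in KO at 4 h and 6 higher 4 h interactions, and no filter gave 2 fallen in KO at 4 h. The stricter filter and the compared groups alone gave 0 risen in KO at 4 h. The cause was not tested for these.

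Leaving out 1 library, members lower in KO ranged from 23 to 26 at 0 h, 1 to 5 at 4 h (1 without WT replicate 1) and 0 to 1 at 8 h, and those higher at 8 h from 5 (without KO replicate 1) to 8. Those fallen in KO at 4 h ranged from 1 (without KO replicate 2 at 0 h) to 5 and those risen from 0 to 1, and those risen in KO at 8 h from 1 to 2. Higher interactions ranged from 5 to 11 at 4 h (5 without KO replicate 2 at 4 h, 6 without WT replicate 2 at 0 h) and from 17 to 20 at 8 h. With a replicate block the counts were 26 lower at 0 h, 12 higher interactions at 4 h and 18 at 8 h, and the block moved no count by over 1.5 times. Depth limits members with few counts, such as Cx3cr1, Spi1 and Itgam.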
